A study of Mus musculus with 18 samples.

Results

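The matrix metalloproteinases (MMPs), the aggrecanase Adamts4 and the tissue inhibitors of metalloproteinases (TIMPs) were followed by RNA-seq in bone marrow-derived macrophages (BMDMs) taken from Il10-/- C57BL/6J animals. The 10 genes were chosen by symbol, namely Mmp8, Mmp9, Mmp12, Mmp13, Mmp14, Mmp19, Adamts4, Timp1, Timp2 and Timp3, and all 10 were found among the 24485 genes listed. The study has 18 libraries in 6 groups of 3: unstimulated cells, cells given (+)-JQ1 (JQ1), cells given IL-10, and the same 3 pretreatments followed by lipopolysaccharide (LPS, LPS + JQ1 and LPS + IL-10). JQ1 at 500 nM or IL-10 at 10 ng/mL was present for 12 hours, and LPS (50 ng/mL) or phosphate-buffered saline then followed for 4 hours. Cells given neither agent carry the label untreated, although a vehicle control is named in the methods. Every group, controls included, carries the Il10 deletion, so no group shows how these genes behave in macrophages that make their own IL-10. According to the methods the donors were males 12 weeks old, and the cells were grown in culture from marrow with conditioned medium as the source of growth factor, so they are a culture model and not tissue macrophages.

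MMPs are zinc-dependent proteases that are made as inactive proenzymes and cut collagens, elastin and other matrix proteins once a propeptide is removed. Adamts4 belongs to a related family and cuts aggrecan and versican, the large proteoglycans of cartilage and of loose matrix. TIMPs bind the active site of MMPs and block it, and Timp3 also inhibits ADAM and ADAMTS proteases. Macrophages are a main source of MMPs in inflamed tissue, where the balance of proteases and TIMPs bears on tissue damage. JQ1 blocks the bromodomains of the BET proteins, which bind acetylated histones, and LPS, from the outer membrane of Gram-negative bacteria, activates macrophages through Tlr4.

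The comparisons ask how LPS changes these genes, and how BET inhibition or added IL-10 changes their level with and without LPS. Levels between genes are given as TPM, a unit per transcript length, and changes of 1 gene between groups as normalised counts, which are counts divided by a size factor of the library. A gene was called changed when its adjusted p from the DESeq2 Wald test was under 0.05, and every adjusted p below comes from that test unless another tool is named. Values are listed in the order of replicates 1, 2 and 3, which were taken to be the same 3 mice in every group. Overlap of libraries between groups is described for single genes, and the share of all genes without overlap is not given. In bulk RNA, fewer cells of a type and less RNA per cell cannot be told apart.

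Library totals ran from 6781952 to 28289498 expected counts, and the unstimulated replicate 2 was the shallowest. The targeted gene, Il10, still had reads in all 18 libraries, with 27.1 to 177 normalised counts, and no wild-type library was there to compare. All 8 macrophage markers found under their symbol, among them Csf1r and Adgre1, had a mean TPM of at least 1 in every group. Their summed TPM was 23417 to 25271 in unstimulated cells and 15522 to 16931 with LPS, 29269 to 29413 with JQ1, 20139 to 23125 with LPS + JQ1, 23552 to 24973 with IL-10 and 16560 to 18085 with LPS + IL-10. Lyz2 carried these sums, with a mean of 18407 TPM in unstimulated cells and 10214 with LPS. Also lower with LPS were Csf1r (1622 and 613), Cd68 (2085 and 1253), Itgam (309 and 196) and Mertk (69.2 and 37.0). Adgre1 was at 685 and 908, Spi1 at 588 and 1380 and Cd14 at 590 and 1736. Ly6g, which defines neutrophils, was at 0 in all libraries, and the 5 lymphocyte markers summed to at most 0.84 TPM. Summed neutrophil markers ran from 24.6 to 89.4 TPM in unstimulated cells, 27.3 to 40.1 in IL-10 cells, 36.1 to 51.9 after LPS and 31.9 to 70.2 after both. JQ1 libraries had 7.50 to 17.6 TPM, or 13.3 to 30.4 when LPS followed. Of the 6 osteoclast markers, Acp5 carried the signal, and the summed TPM was 32.8 to 50.8 in unstimulated cells, 29.0 to 40.8 with IL-10, 147 to 189 with LPS and 176 to 212 with LPS + IL-10. With JQ1 it was 9.01 to 10.5 and with LPS + JQ1 51.9 to 72.7. The higher sum with LPS was that of Acp5 (mean 25.5 TPM in unstimulated cells and 152 with LPS). Dcstamp (11.9 and 7.08) and Ctsk (5.51 and 2.95) were lower with LPS, and Calcr, Oscar and Ocstamp reached at most 0.88 TPM. The 8 fibroblast markers summed to at most 10.9 TPM without LPS, 17.7 to 19.8 with LPS, mainly through Pdgfrb, 2.29 to 7.23 with LPS + JQ1 and 19.8 to 21.0 with LPS + IL-10. The 4 endothelial markers summed to at most 2.36 TPM without LPS, 7.89 to 9.98 with LPS, mainly Kdr, at most 0.28 with LPS + JQ1 and 8.37 to 9.89 with LPS + IL-10. Marker values are TPM throughout. With LPS the median log2 fold change of genes with a mean of at least 10 was -0.70 with limma on log2(TPM + 1). With DESeq2 that median was -0.03. A lower marker TPM with LPS is therefore not by itself a fall of that marker relative to most genes. The part of these markers in the results below was not tested.

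**Figure D1:**
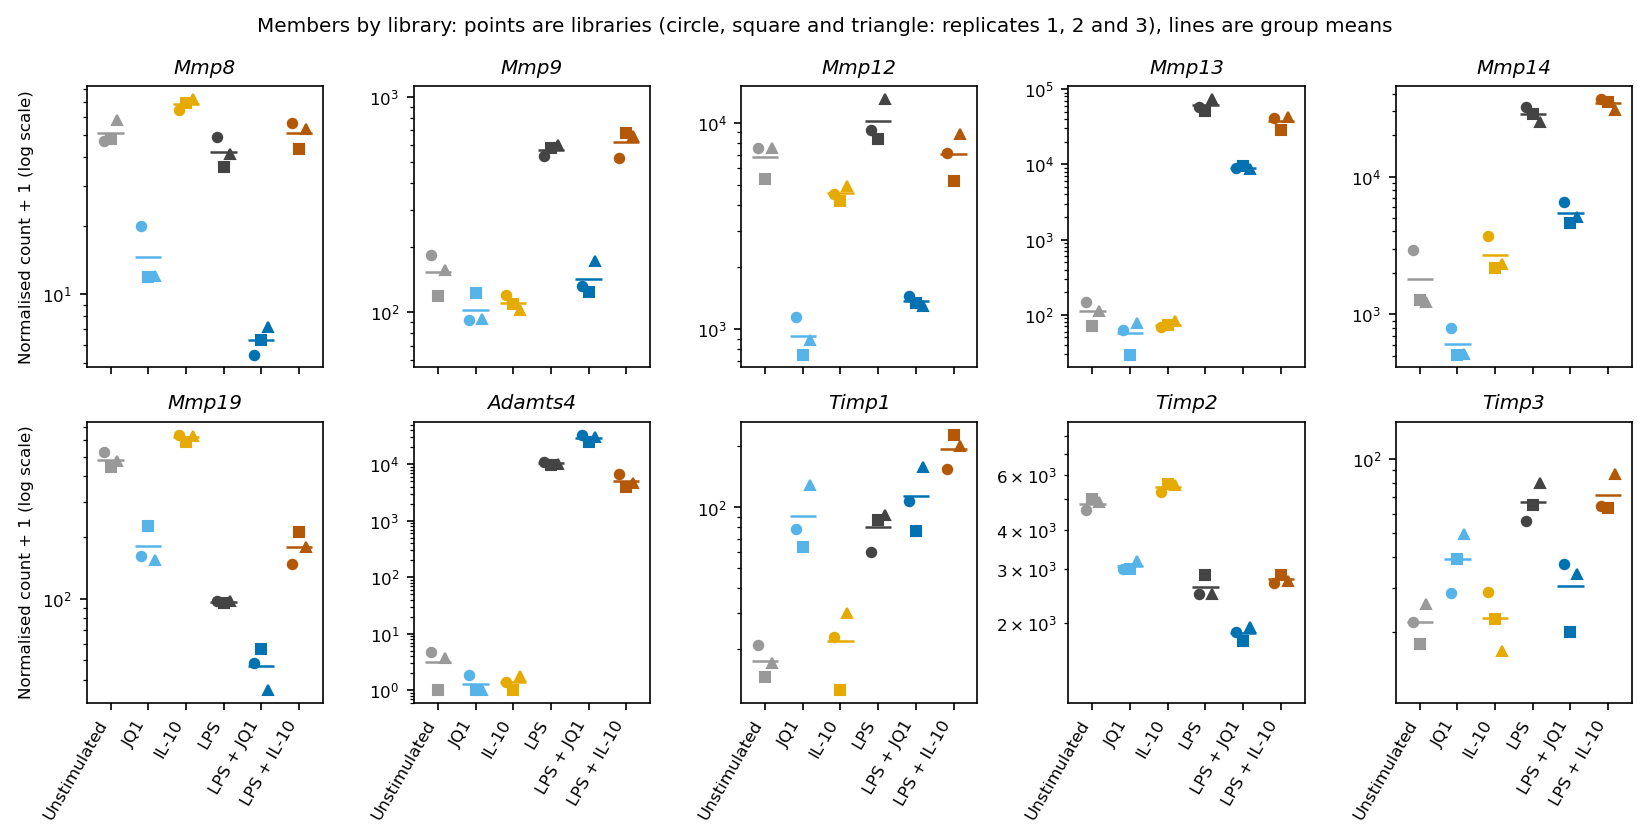
Normalised counts plus 1 (log scale) of the 10 genes in each of the 18 libraries, by group. Points are libraries, with circles, squares and triangles for replicates 1, 2 and 3, and lines are group means. Adamts4 was near 0 in all 9 libraries without LPS and stood highest in LPS + JQ1, whereas Mmp13 was highest in LPS alone.

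Unstimulated macrophages held mainly 1 protease and 1 inhibitor transcript of these families. Mmp12, the macrophage elastase, had the highest level at 274 ± 59.1 TPM (SD, n = 3), and Timp2, which takes part with Mmp14 in the activation of pro-Mmp2, followed at 194 ± 7.68 TPM. The libraries of these 2 genes did not overlap. Mmp14, a membrane-anchored MMP, lay at 68.7 ± 37.3 TPM and Mmp19 at 21.0 ± 2.23 TPM. Mmp9, a gelatinase (7.05 ± 1.69 TPM), and Mmp13, a collagenase (6.15 ± 2.28 TPM), overlapped, as did Timp1 (3.27 ± 0.741 TPM) and Mmp8 (3.06 ± 0.458 TPM), the neutrophil collagenase. The libraries of Mmp13 and Timp1 overlapped too. Timp3 was at 0.640 ± 0.140 TPM and Adamts4 at 0.05 ± 0.0458 TPM. After LPS the order was Mmp13 at 1984 ± 527 TPM, Mmp14 at 627 ± 33.7, Mmp12 at 241 ± 77.4, Adamts4 at 135 ± 7.07, Timp2 at 60.8 ± 5.89, Mmp9 at 15.3 ± 1.97, Timp1 at 9.13 ± 2.51, Mmp19 at 2.40 ± 0.235, Mmp8 at 1.46 ± 0.197 and Timp3 at 1.19 ± 0.299 TPM. The only neighbours in that order whose libraries overlapped were Mmp8 and Timp3.

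Stimulation with LPS raised 7 of the 10 genes and lowered 2, where 31.6% of all genes tested were called higher and 32.9% lower (64.5% in either direction). The largest rises were those of Adamts4 and Mmp13, followed by Mmp14, Timp1, Mmp9 and Timp3, with a small rise of Mmp12. Mmp19 and Timp2 fell. The median log2 fold change of the 10 genes was 1.75, and that of all genes tested was -0.07.

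Mmp13, which cleaves fibrillar collagen, had 149, 71.0 and 112 normalised counts in unstimulated cells and 57435, 51390 and 74368 with LPS. Every LPS library lay far above every unstimulated one, a log2 fold change of 9.09 (SE 0.29, adjusted p = 9.57e-208) or 544-fold. Mmp14 rose from 2908, 1260 and 1237 to 32080, 28346 and 24954, a log2 fold change of 3.98 (SE 0.34, adjusted p = 3.10e-30). Mmp9 rose from 184, 118 and 156 to 532, 578 and 595 (1.87, SE 0.16, adjusted p = 7.07e-31). For these 3 genes the groups did not overlap. Mmp12 was already abundant and had 7546, 5329 and 7498 normalised counts without and 9170, 8280 and 13027 with LPS, a log2 fold change of 0.58 (SE 0.19, adjusted p = 0.00489). That rise depended on scaling: the fold change was -0.35 with total-count scaling and -0.21 with limma on log2(TPM + 1), neither past the threshold, and it also missed the threshold without unstimulated replicate 2 (0.43, adjusted p = 0.0554) or LPS replicate 3 (0.36, adjusted p = 0.0812). Total-count scaling moved the median of all genes with a mean of at least 10 from -0.03 to -0.96 and limma on TPM moved it to -0.70, and the share of called genes that were higher went from 49.5% to 20.6% and 23.4%. Relative to those medians Mmp12 was higher with LPS under all 3 scalings, but setting it against the median largely undoes the change of scaling. That comparison therefore cannot decide whether Mmp12 rose.

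Mmp8 had 46.3, 47.4 and 57.6 normalised counts without and 48.1, 35.2 and 40.5 with LPS, and the groups overlapped (log2 fold change -0.32, 95% interval -0.80 to 0.16, adjusted p = 0.257). The same change was past the threshold with total-count scaling (-1.25) and limma on log2(TPM + 1) (-0.72). Mmp19 was the 1 MMP called lower, from 526, 443 and 473 to 96.1, 94.1 and 97.0, a fall of 5.04-fold (log2 fold change -2.33, SE 0.16, adjusted p = 9.76e-45).

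Adamts4 went from almost no reads to a major transcript. It had 3.86, 0 and 2.68 normalised counts in unstimulated cells, which are 9 reads over the group, and 11117, 9909 and 10055 with LPS, where the 3 libraries together held 25636. The ratio of these counts, scaled for depth, was 3868 with an exact 95% interval of 2037 to 8459 that covers counting error only. The fitted log2 fold change was 11.94 (SE 0.52, adjusted p = 3.80e-117). Within the LPS libraries the TPM ratio of Adamts4 to Timp3, its inhibitor, was 118 ± 27.0, and that of Mmp14 to Timp2 was 10.4 ± 1.58 (SD, n = 3).

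The inhibitors divided in direction. Timp1, an inducible secreted inhibitor, had 20.1, 13.5 and 16.1 normalised counts without and 59.4, 85.8 and 90.9 with LPS (log2 fold change 2.22, SE 0.36, adjusted p = 3.24e-09). Timp3, which binds to the matrix, rose from 20.8, 16.9 and 24.8 to 55.1, 64.1 and 78.6 (1.62, SE 0.31, adjusted p = 4.76e-07). Timp2, by far the most abundant, fell from 4629, 5004 and 4924 to 2491, 2853 and 2483 (-0.89, SE 0.06, adjusted p = 3.57e-44). None of the 3 inhibitors had groups that overlapped, in a comparison that called 64.5% of all genes tested. Timp3 lies inside Syn3 on the other strand, and reads were assigned without regard to strand, so a share of its reads could be Syn3 RNA, which was at 0.18 to 0.89 TPM.

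**Figure D2:**
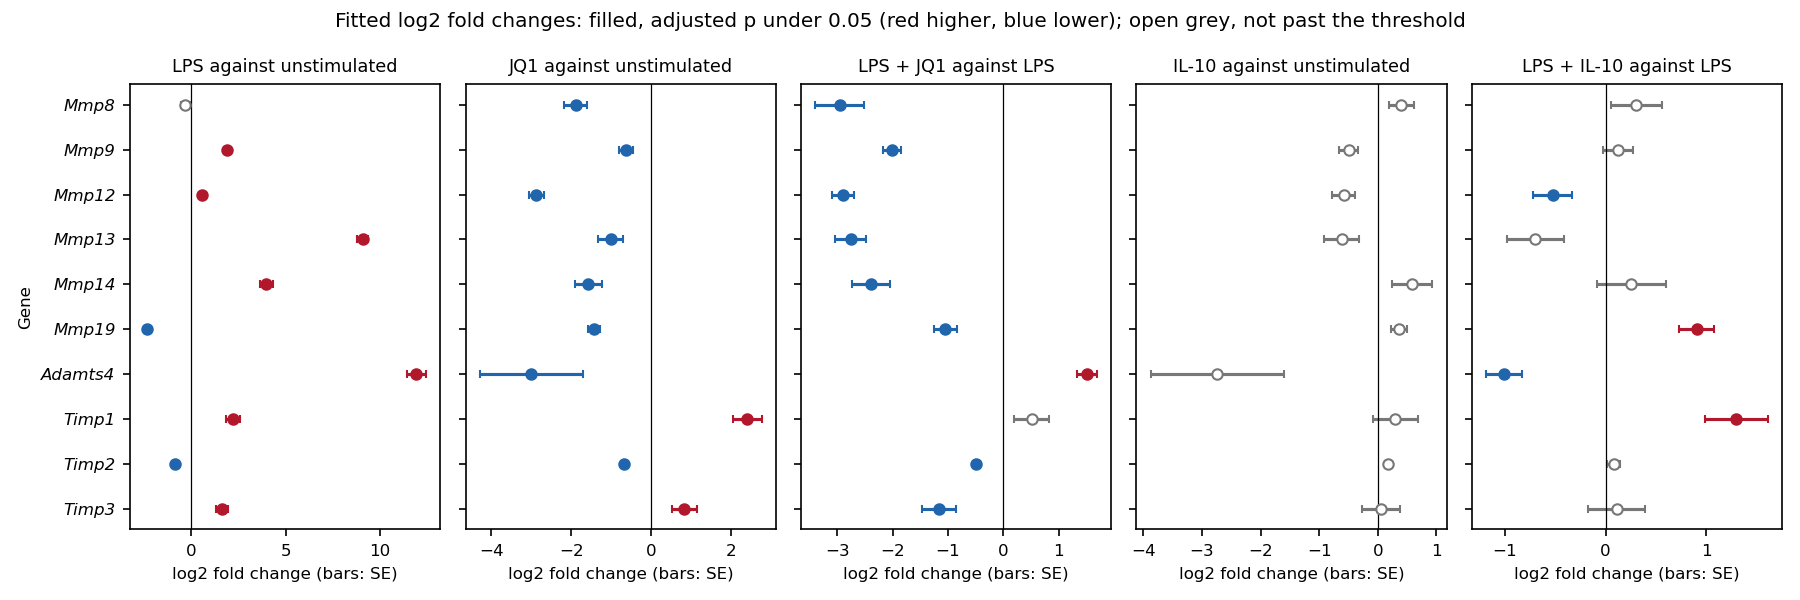
Fitted log2 fold changes (points) with standard errors (bars) of the 10 genes in 5 comparisons, each panel with its own axis. Filled red points were called higher and filled blue points lower at an adjusted p under 0.05, and open grey points were not called. With LPS present, JQ1 left Adamts4 as the 1 gene called higher against 8 called lower.

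In cells without LPS, JQ1 lowered all 6 MMPs and Timp2 and raised Timp1 and Timp3. All 10 genes were called, 2 higher and 8 lower, where 45.7% of all genes tested were called (21.9% higher and 23.7% lower). Mmp12 went from 7546, 5329 and 7498 normalised counts to 1146, 754 and 886, a fall of 7.31-fold (log2 fold change -2.87, SE 0.20, adjusted p = 6.56e-47). Mmp8 went down to 19.0, 10.8 and 10.99 (-1.89, adjusted p = 1.16e-09), Mmp14 to 797, 509 and 514 (-1.57, adjusted p = 2.57e-05) and Mmp19 to 162, 226 and 155 (-1.42, adjusted p = 1.87e-20). In these 4 genes, all JQ1 libraries lay below all unstimulated ones. Mmp13 at 62.3, 28.6 and 76.0 (-1.01, adjusted p = 0.00391) and Mmp9 at 90.8, 122 and 91.6 (-0.62, adjusted p = 0.00124) overlapped with unstimulated cells.

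Timp1 rose 5.29-fold with JQ1 alone, to 77.0, 63.1 and 128 normalised counts (log2 fold change 2.40, SE 0.36, adjusted p = 2.44e-10), and 2 of these 3 libraries lay within the range of the LPS libraries and 1 above it. Timp2 fell to 2988, 2981 and 3176 (-0.67, SE 0.06, adjusted p = 2.82e-25). Timp3 rose to 27.7, 38.4 and 48.5 (0.83, SE 0.32, adjusted p = 0.0222), a call that was lost without unstimulated replicate 1 (adjusted p = 0.0739), unstimulated replicate 2 (0.0681) or JQ1 replicate 3 (0.151). It was also lost with total-count scaling (0.0944), limma on log2(TPM + 1) (0.101) and both groups fitted alone (0.0692). The fall of Mmp13 was lost without unstimulated replicate 1 (adjusted p = 0.0618). Adamts4 had 1 read in the 3 JQ1 libraries against 9 in unstimulated cells, a ratio of 0.115 with an exact 95% counting interval of 0.00263 to 0.831. Its call (adjusted p = 0.0437) was lost with the replicate as a block (0.0531), with edgeR (0.118), with limma on log2(TPM + 1) (log2 fold change -0.06, adjusted p = 0.716) or log2(TPM + 0.1) (0.0801), with both groups fitted alone (0.276) and without unstimulated replicate 1 or 3 or JQ1 replicate 2 or 3 (0.0652 to 0.179).

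During LPS stimulation JQ1 lowered all 6 MMPs, Timp2 and Timp3, and raised Adamts4. These are 8 genes lower and 1 higher, where 32.9% of all genes tested were called lower and 24.4% higher (57.3% in either direction). The median log2 fold change of the 10 genes was -1.59, and that of all genes tested was -0.11.

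Expressed against the same-numbered LPS library, LPS + JQ1 left 15.2% ± 3.34 (SD, n = 3) of Mmp13, 14.0% ± 3.48 of Mmp12, 13.1% ± 3.41 of Mmp8, 19.0% ± 2.38 of Mmp14 and 24.9% ± 3.71 of Mmp9. Mmp13 had 8988, 9397 and 8660 normalised counts, still far above the unstimulated level (log2 fold change against LPS -2.76, SE 0.28, adjusted p = 1.83e-21). Mmp12 had 1451, 1340 and 1300 (-2.90, SE 0.19, adjusted p = 1.45e-48), below every library of untreated cells with or without LPS. Mmp14 had 6576, 4621 and 5077 (-2.39, SE 0.34, adjusted p = 1.64e-11). Mmp9 had 131, 123 and 171 (-2.01, SE 0.16, adjusted p = 1.30e-33), which lies within the range of unstimulated cells.

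Mmp8 had 4.42, 5.27 and 6.15 normalised counts with LPS + JQ1 (-2.96, SE 0.44, adjusted p = 1.10e-10), a level at which few reads per library set the value. The summed neutrophil markers were also lower with LPS + JQ1, as given above. The fall was mainly that of S100a8 (mean 18.3 TPM with LPS and 6.63 with LPS + JQ1) and S100a9 (19.7 and 9.66). Ltf (0.637 and 0.443), Camp and Cebpe had low means that were also lower with LPS + JQ1. Ngp was at 3.23 and 3.48 TPM, but without LPS its mean was lower with JQ1 than in unstimulated cells. Mmp19, which LPS had already lowered, fell further to 47.5, 55.8 and 34.5 (-1.05, SE 0.21, adjusted p = 1.25e-06). None of the 6 MMPs had LPS and LPS + JQ1 libraries that overlapped, in a comparison that called 57.3% of all genes tested.

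Adamts4 moved against the other proteases. It had 33663, 24481 and 30705 normalised counts with LPS + JQ1 against 11117, 9909 and 10055 with LPS, and the lowest LPS + JQ1 library lay above the highest LPS library by more than 2-fold. The log2 fold change was 1.52 (SE 0.18, adjusted p = 7.83e-17), or 2.86-fold, and it was called higher under every alternative run. LPS + JQ1 against JQ1, which sets 78673 reads against 1, gave a depth-scaled ratio of 96228 with an exact 95% counting interval that starts at 17270. Of the 2459 genes raised by LPS (adjusted p under 0.05, log2 fold change above 1 and mean of at least 10), 124 were called higher and 1978 lower with JQ1, and 11 had a larger log2 fold change than Adamts4. Among the 1445 of them with a mean of at least 1000 normalised counts in the LPS libraries, 2 did. Both sets were picked for high values in the LPS libraries, which are also the denominator here. That choice itself can tilt them towards lower values with JQ1, so the rank of Adamts4 is a description. Over all genes tested, 24.4% were called higher and 32.9% lower. The ratio of Adamts4 to Mmp13 within a library, which no scaling can change, was 0.0784, 0.0784 and 0.0549 with LPS and 1.52, 1.06 and 1.44 with LPS + JQ1.

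Among the inhibitors, Timp2 fell to 1869, 1761 and 1946 normalised counts (log2 fold change -0.49, SE 0.07, adjusted p = 3.33e-13), a call lost with total-count scaling (-0.12, adjusted p = 0.138) and limma on log2(TPM + 1) (-0.18, adjusted p = 0.0526). Timp3 fell to 36.4, 19.0 and 33.2 (-1.17, SE 0.30, adjusted p = 0.000320). Timp1 had 106, 75.8 and 158 and overlapped with LPS alone (0.51, 95% interval -0.11 to 1.14, adjusted p = 0.159), but it was called higher with total-count scaling (0.89, adjusted p = 0.0133) and without LPS + JQ1 replicate 2 (0.73, adjusted p = 0.0483).

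**Figure D3:**
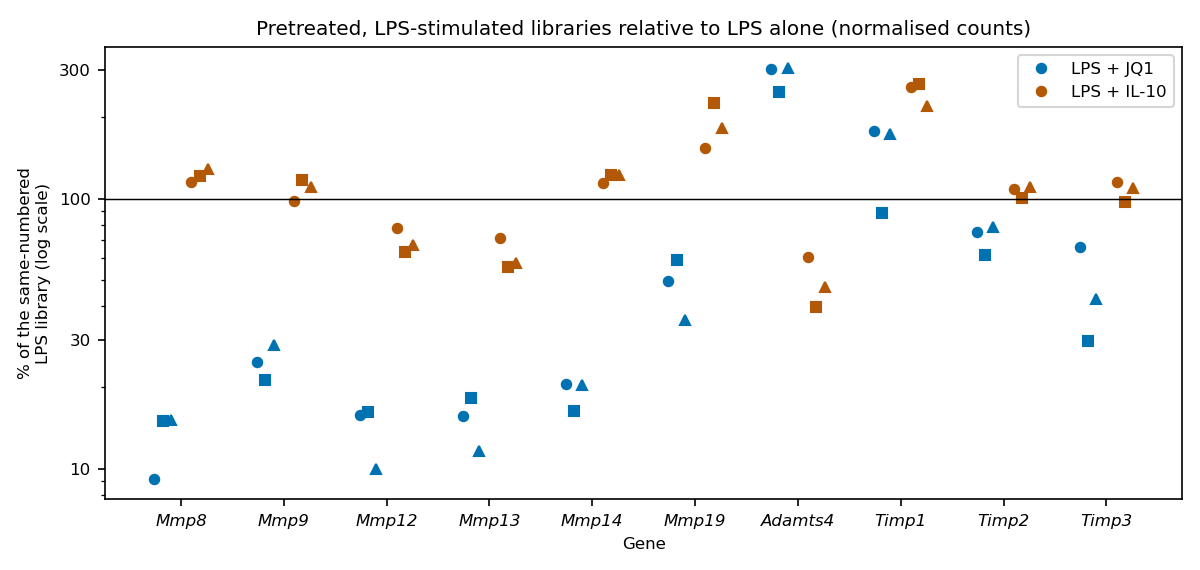
Normalised counts of the LPS + JQ1 (blue) and LPS + IL-10 (brown) libraries as a percentage of the same-numbered LPS library (log scale), for each of the 10 genes, with circles, squares and triangles for replicates 1, 2 and 3. The line marks 100%. Adamts4 stood at 247% to 305% with JQ1 and 39.8% to 60.9% with IL-10, and Mmp13 at 11.6% to 18.3% with JQ1 and 55.95% to 71.6% with IL-10.

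Whether JQ1 acted differently with and without LPS was tested as an interaction, which called 5 of the 10 genes (1 higher and 4 lower), where 41.5% of all genes tested were called (17.7% higher and 23.8% lower). The JQ1 effect was more negative with LPS for Mmp13 (interaction -1.75, SE 0.42, adjusted p = 0.000161) and Mmp9 (-1.39, SE 0.24, adjusted p = 5.49e-08). For Timp1 (-1.89, SE 0.48, adjusted p = 0.000377) and Timp3 (-1.997, SE 0.44, adjusted p = 3.14e-05) JQ1 raised the transcript without LPS, whereas with LPS it was lower for Timp3 and not called for Timp1. For Adamts4 it was more positive (4.52, SE 1.30, adjusted p = 0.00188), a value that rests on 10 reads in the groups without LPS. The interaction of Mmp12 was -0.03 (95% interval -0.57 to 0.51), with a fall of 7.31-fold without and 7.45-fold with LPS. Mmp14 missed the threshold (-0.82, adjusted p = 0.172) but passed with the replicate as a block (-0.89, adjusted p = 0.000558) and without unstimulated replicate 1 (-1.35, adjusted p = 0.000889). Timp2 also missed it (0.18, adjusted p = 0.103) but passed with edgeR (0.28, adjusted p = 0.0215), total-count scaling (0.73, adjusted p = 1.51e-13), limma on log2(TPM + 1) (0.69, adjusted p = 6.70e-05) and without LPS replicate 2 (0.25, adjusted p = 0.00906). Mmp19 missed it (0.37, adjusted p = 0.243) but passed with total-count scaling (0.93, adjusted p = 0.000930), limma on log2(TPM + 1) (1.02, adjusted p = 0.000590) and without JQ1 replicate 2 (0.56, adjusted p = 0.0485).

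The LPS response after JQ1 called 8 of the 10 genes, 5 higher and 3 lower (58.6% of all genes tested were called, 27.6% higher and 31.0% lower). Mmp13 rose by a log2 fold change of 7.34 (SE 0.30, adjusted p = 8.92e-128) and Mmp14 by 3.16 (SE 0.34, adjusted p = 3.41e-19). Mmp9 (0.48, adjusted p = 0.0127) and Mmp12 (0.55, adjusted p = 0.00954) rose little, and both calls were lost with total-count scaling (0.11 and 0.18) and with limma on log2(TPM + 1) (0.18 and 0.30). Timp3 (-0.38, adjusted p = 0.306) was called lower with total-count scaling (-0.75, adjusted p = 0.0317), and the call of Mmp8 (-1.39, adjusted p = 0.00654) was lost with both groups fitted alone (0.0871). Without JQ1 replicate 1, Mmp9 (adjusted p = 0.0740) and Mmp8 (0.0745) lost their calls; Mmp9 also lost it without JQ1 replicate 3 (0.0675) or LPS + JQ1 replicate 3 (0.142), and Mmp12 without JQ1 replicate 2 (0.0813).

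IL-10 alone called none of the 10 genes with DESeq2, where 2.81% of all genes tested were called (1.80% higher and 1.01% lower). At an unadjusted p under 0.05 there were 6 with DESeq2, 7 with edgeR and 6 with limma on log2(TPM + 1), and neither of the latter called any after adjustment. The share of all genes at that unadjusted threshold is not given, and 2.81% holds for the adjusted p only. These counts therefore cannot be set against it. With the replicate as a block 2 were called, Mmp12 lower (-0.57, adjusted p = 0.00358) and Mmp14 higher (0.64, adjusted p = 0.00454). Mmp12 had 4521, 4172 and 4932 normalised counts with IL-10, each below all 3 unstimulated libraries. Mmp14 had 3684, 2152 and 2305, each above the same-numbered unstimulated library, among which replicate 1 stood high at 2908. Without that library Mmp14 was called higher (1.12, adjusted p = 0.00196), and without unstimulated replicate 2 Mmp9 (-0.62, adjusted p = 0.0151), Mmp12 (-0.73, adjusted p = 0.0219) and Mmp13 (-0.84, adjusted p = 0.0298) were called lower. Mmp8 at 63.6, 68.4 and 71.4 and Mmp19 at 640.4, 587 and 633 lay above all unstimulated libraries (adjusted p = 0.574 and 0.175). Adamts4 had 2 reads in the 3 libraries. Timp1 had 22.0, 11.5 and 29.1, Timp2 5296, 5592 and 5584, and Timp3 27.9, 21.5 and 15.8 (adjusted p = 1, 0.101 and 1).

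During LPS stimulation IL-10 lowered Adamts4 and raised Timp1 and Mmp19. In all 4 of the 10 genes were called, 2 higher and 2 lower, where 17.2% of all genes tested were called (8.38% higher and 8.81% lower). Adamts4 had 6775, 3943 and 4719 normalised counts, all below the LPS libraries (log2 fold change -1.01, SE 0.18, adjusted p = 3.55e-07). Timp1 rose 2.45-fold to 154, 228 and 199 (1.30, SE 0.31, adjusted p = 0.000488). Mmp19 rose to 148, 213 and 178 (0.90, SE 0.17, adjusted p = 5.14e-06), which is still below every unstimulated library.

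Mmp12 had 7158, 5240 and 8769 with LPS + IL-10 and overlapped with LPS (-0.53, SE 0.19, adjusted p = 0.0409). Its call was lost with edgeR (0.0680), with both groups fitted alone (0.0781), with total-count scaling (0.129), with limma on log2(TPM + 1) (0.254) and without LPS replicate 3 (0.337), LPS + IL-10 replicate 1 (0.0873) or LPS + IL-10 replicate 2 (0.296). Mmp13 had 41151, 28754 and 42966, each below all LPS libraries (-0.70, SE 0.28). It missed the threshold (adjusted p = 0.0713) but passed with the replicate as a block (-0.71, adjusted p = 0.000931), with edgeR (adjusted p = 0.0176) and with both groups fitted alone (0.00148). For the remaining 5 genes the groups overlapped. Mmp14 had 36640, 34746 and 30511 (0.26, 95% interval -0.42 to 0.93), Mmp9 518, 678 and 656 (0.12, interval -0.17 to 0.41), and Mmp8 55.5, 42.6 and 52.3 (0.30, interval -0.19 to 0.80). Timp2 had 2703, 2855 and 2741 (0.08, interval -0.04 to 0.21), called higher with total-count scaling alone (0.18, adjusted p = 0.0473), and Timp3 63.6, 62.3 and 85.7 (0.11, interval -0.44 to 0.66).

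The LPS response after IL-10 called 9 of the 10 genes, 7 higher and 2 lower (67.0% of all genes tested were called, 33.2% higher and 33.8% lower). Mmp13 rose by 9.01 (SE 0.29, adjusted p = 3.26e-204), Mmp14 by 3.65 (SE 0.34, adjusted p = 1.37e-25), Timp1 by 3.22 (SE 0.33, adjusted p = 1.04e-21) and Mmp9 by 2.49 (SE 0.16, adjusted p = 1.35e-54) on the log2 scale. Mmp19 (-1.80, adjusted p = 2.03e-32) and Timp2 (-0.99, adjusted p = 5.59e-55) fell. Mmp12, counted as higher (0.64, adjusted p = 0.00189), was at -0.19 with total-count scaling and -0.11 with limma on log2(TPM + 1), neither past the threshold. Mmp8 missed the threshold (-0.42, adjusted p = 0.0877) but was called lower with edgeR (-0.47, adjusted p = 0.020), total-count scaling (-1.25) and limma on log2(TPM + 1) (-0.86). The interaction of IL-10 with LPS called none of the 10 with DESeq2 (7.44% of all genes tested were called, 4.00% higher and 3.44% lower) and none with edgeR, whereas limma on log2(TPM + 1) called Adamts4 with the opposite sign. At an unadjusted p under 0.05 there were 3 with DESeq2 (Mmp9, Mmp19 and Timp1), 2 with edgeR and 3 with limma. Here too the share of all genes at the unadjusted threshold is not given, and 7.44% holds for the adjusted p only. The interaction of Mmp9 was 0.62 (adjusted p = 0.0711), that of Mmp19 0.54 (0.144) and that of Timp1 0.99 (0.275).

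Set against each other under LPS, the 2 pretreatments differed in all 10 genes, with 1 higher and 9 lower in LPS + JQ1 than in LPS + IL-10 (55.3% of all genes tested were called, 23.8% higher and 31.6% lower). This comparison and those against LPS share libraries, so their values are given side by side. Adamts4 was 5.76-fold higher with JQ1 than with IL-10 (log2 fold change 2.52, SE 0.18, adjusted p = 1.15e-44). The 6 MMPs were lower with JQ1 by 3.86-fold (Mmp19) to 9.60-fold (Mmp8). Timp1 was lower with JQ1 (-0.78, SE 0.31, adjusted p = 0.0220), with overlapping libraries, and this call was lost with total-count scaling (0.171), limma on log2(TPM + 1) (0.102) and without LPS + JQ1 replicate 1 (0.0717), LPS + JQ1 replicate 2 (0.136), LPS + IL-10 replicate 2 (0.108) or LPS + IL-10 replicate 3 (0.0598).

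The balance of MMP to TIMP transcripts was described within each library as the summed TPM of the 6 MMPs over that of the 3 TIMPs, with no test. Unstimulated cells had ratios of 2.40, 1.44 and 1.92, JQ1 cells 0.680, 0.507 and 0.461, and IL-10 cells 1.67, 1.27 and 1.42. LPS alone gave 42.4, 32.2 and 46.9, while after JQ1 it gave 8.40, 8.82 and 6.70 and after IL-10 28.3, 19.7 and 25.9. The LPS + JQ1 libraries thus lay between those without LPS and the other LPS libraries, and no LPS + IL-10 library reached the lowest LPS library. Without Mmp13 neither separation was complete. Ratios were then 10.9 to 14.3 after LPS and 9.83 to 12.2 after IL-10 and LPS. LPS after JQ1 gave 2.33 to 3.27, still below both, but its lowest library lay below the highest unstimulated one (1.43 to 2.36). The numerator carried the difference between LPS and LPS + JQ1, with 2871 ± 583 against 552 ± 21.3 TPM of MMPs, while the TIMPs summed to 71.2 ± 8.28 and 70.0 ± 7.72 TPM (SD, n = 3). Mmp12 made up 72.5% ± 5.82 of MMP TPM in unstimulated cells, and Mmp13 68.6% ± 4.00 after LPS alone, 64.9% ± 3.75 when JQ1 came first and 55.9% ± 5.24 when IL-10 did. Timp2 was 98.0% ± 0.437 of TIMP TPM in unstimulated cells and 76.8% ± 5.44 with LPS + JQ1, as Timp1 reached 22.3% ± 5.33. Transcript ratios do not give the ratio of active proteins.

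**Figure D4:**
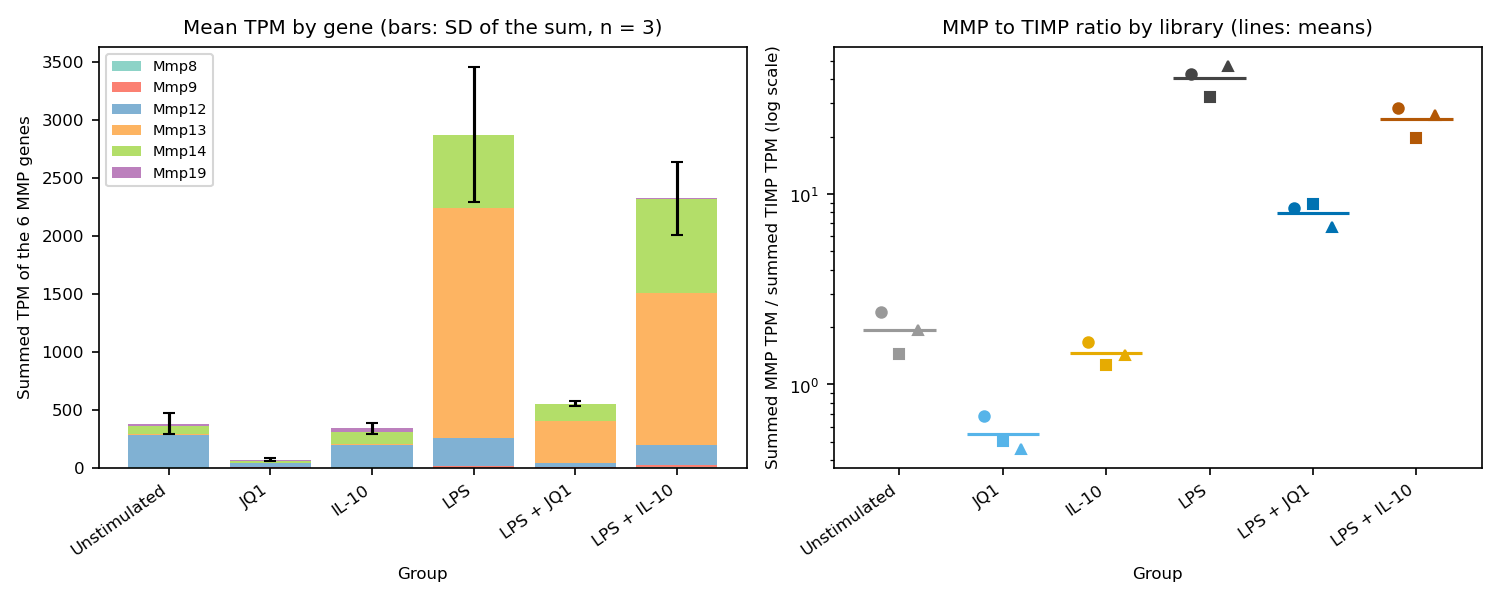
Left, mean TPM of the 6 MMPs stacked by gene in each group, with bars for the SD of the sum (n = 3). Right, the ratio of summed MMP to summed TIMP TPM in each library (log scale), with lines for group means. The ratio was highest with LPS (40.5 ± 7.51), followed by LPS + IL-10 (24.7 ± 4.44) and LPS + JQ1 (7.97 ± 1.12).

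The pairing of 1 MMP with the inhibitor it is best known to bind gave the same kind of description. The TPM ratio of Mmp9 to Timp1 was 2.15 ± 0.113 (SD, n = 3) in unstimulated cells and 0.295 ± 0.142 in JQ1 cells. After LPS it was 1.73 ± 0.302 alone, 0.309 ± 0.0650 after JQ1 and 0.750 ± 0.0376 after IL-10. The ratio of Adamts4 to Timp3 was 147, 113 and 94.1 in the LPS libraries, 674, 938 and 681 in those given JQ1 first, and 77.8, 46.4 and 40.5 in those given IL-10 first.

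Mmp13, Mmp12 and Mmp8 lie in the MMP cluster on chromosome 9 of the mm9 build, with Mmp13 at 7272514 to 7283333, Mmp12 at 7344381 to 7369499 and Mmp8 at 7558429 to 7568486, all on the plus strand. The cluster holds 10 genes, and the other 7 reached at most 2.31 TPM (Mmp10) in any library. Mmp3 reached 0.62 TPM, and Mmp7 and Mmp20 were at 0 in all libraries. Neighbours within the cluster thus differed in level by orders of magnitude. The exons of Mmp12 overlap those of Mmp1b on the opposite strand, but Mmp1b reached at most 0.06 TPM. The other members are spread over the genome: Mmp9 on chromosome 2 (164766280 to 164781350), Mmp14 on 14 (55050441 to 55060095), Mmp19 on 10 (128228009 to 128237880), Adamts4 on 1 (173180552 to 173190768), Timp1 on X (20447292 to 20451861), Timp2 on 11 (118162383 to 118217054, minus strand) and Timp3 on 10 (85763117 to 85812251). Exons of Mmp19 overlap 1110012D08Rik on the opposite strand. The expected counts of Mmp19 were not whole (682.38, 262.41 and 706.23 in unstimulated cells), so some of its reads were divided with another gene. Which gene that was, and its part in the Mmp19 results, was not tested. Timp1 lies within the span of Syn1, which was at 1.35 to 13.2 TPM beside 2.29 to 27.9 for Timp1.

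RefSeq promoter windows of 300 bases (250 before to 50 after the start, build GRCm38.p6, which is not the build of the files) matched 7 of the 10 genes, with none for Mmp9, Mmp19 and Adamts4. They were searched on both strands for AP-1 (TGANTCA) and ETS (GGAAGT), for NF-kB (GGG, 2 of any base, TT, 1 of any base, CC, or GGGA, 4 of any base, CC) and for IRF (GAAA, 2 of any base, GAAA), letters that could overlap one another. Printed are windows of Mmp13 and Mmp12, the cluster members with the largest absolute fall in normalised counts with JQ1 under LPS. Both hold an AP-1 match, and no other window of the members does. By log2 fold change of LPS + JQ1 against LPS, Mmp8 had the lowest value of the 3 (-2.96, beside -2.90 for Mmp12 and -2.76 for Mmp13). The Mmp8 window holds no AP-1 match. Mmp12 has 2 windows, and the first (chr9:7344147-7344446, plus strand), not printed, holds no AP-1 match. Capitals mark AP-1 and IRF matches.
Mmp13: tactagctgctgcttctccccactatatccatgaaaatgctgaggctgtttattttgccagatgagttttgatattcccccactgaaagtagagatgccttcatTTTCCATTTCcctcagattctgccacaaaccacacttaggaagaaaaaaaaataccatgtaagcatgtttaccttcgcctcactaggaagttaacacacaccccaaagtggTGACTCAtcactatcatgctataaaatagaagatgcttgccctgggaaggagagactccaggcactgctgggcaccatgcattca
Mmp12: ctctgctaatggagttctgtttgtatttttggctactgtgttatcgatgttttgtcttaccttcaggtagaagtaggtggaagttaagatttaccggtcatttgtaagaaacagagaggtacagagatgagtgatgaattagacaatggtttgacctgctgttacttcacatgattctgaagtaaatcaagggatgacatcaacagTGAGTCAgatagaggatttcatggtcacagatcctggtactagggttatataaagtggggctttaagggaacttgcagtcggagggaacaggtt
The Mmp13 window is chr9:7272264-7272563 and the Mmp12 window, the second of 2 for this gene, is chr9:7347124-7347423, both on the plus strand. The AP-1 match lies 35 to 29 bases before the start in Mmp13 and 44 to 38 bases before it in Mmp12, and the IRF match of Mmp13 lies 146 to 137 bases before. Of all 32851 windows of that length, 7.81% held the AP-1 letters, 3.44% those of IRF, 22.3% those of NF-kB and 23.8% those of ETS. NF-kB letters were found in the windows of Mmp14 and Timp2, and ETS letters in those of Mmp8, Mmp12, Mmp13 and Timp1. The Timp3 window held none of the 4. A match is a description of letters and not a binding site, and the data here bear on transcript levels only.

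Of 17 other MMPs, 12 were tested with LPS, and 4 rose and 1 fell (median log2 fold change 0.05), beside 31.6% higher and 32.9% lower over all genes tested. Mmp25, a membrane-anchored MMP, rose from 9.72 ± 8.97 to 1370 ± 108 normalised counts (7.05, SE 0.31, adjusted p = 6.62e-117), and JQ1 brought it down to 82.7 ± 11.8 (-4.05, SE 0.20, adjusted p = 1.03e-86). JQ1 with LPS lowered 6 of 12 tested and raised 1, beside 32.9% lower and 24.4% higher over all genes. Of 18 other ADAMTS genes, 12 were tested with LPS, with 2 higher and 1 lower, and 11 with JQ1 under LPS, with 2 higher and 2 lower (all genes 31.6% higher and 32.9% lower, then 24.4% and 32.9%). Adamts5, the other main aggrecanase, was at 0 in the LPS libraries and at 2.95 ± 2.27 normalised counts with LPS + JQ1. Of 11 ADAM proteases, 9 were tested, and LPS raised 2 and lowered 5, while JQ1 under LPS raised 2 and lowered 5 (all genes 31.6% and 32.9% with LPS, 24.4% and 32.9% with JQ1). Adam19 fell with LPS after JQ1 from 106 ± 38.1 to 5.30 ± 0.991 (-4.33, SE 0.47, adjusted p = 1.31e-19). Without pretreatment it had 350 ± 80.3 normalised counts in unstimulated cells and 30.9 ± 8.77 with LPS. Adam19 was higher with LPS + IL-10 than with LPS (1.89, SE 0.32, adjusted p = 6.31e-08).

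Of 14 activators and regulators, 12 were tested with LPS, with 7 higher and 3 lower (median 1.67, all genes 31.6% higher and 32.9% lower). The plasminogen system, whose product plasmin can activate pro-MMPs, is part of this list. Plat, tissue plasminogen activator, rose from 1.01 ± 0.893 to 828 ± 60.5 normalised counts (9.86, SE 0.85, adjusted p = 2.84e-30). Plau, urokinase, fell with JQ1 alone from 4483 ± 448 to 421 ± 25.9 (-3.41, SE 0.14, adjusted p = 2.45e-122) and was lower with IL-10 both without LPS (-0.74, adjusted p = 1.80e-05) and with it (-1.12, adjusted p = 2.47e-12). Plaur, the urokinase receptor, fell with IL-10 alone (-0.77, SE 0.15, adjusted p = 9.32e-05). Serpinb2 rose with LPS after IL-10 to 354 ± 38.1 (8.82, SE 0.75, adjusted p = 1.67e-31). Lcn2, which binds Mmp9 protein, rose with IL-10 under LPS from 148 ± 48.1 to 1269 ± 213 (3.11, SE 0.37, adjusted p = 9.26e-15). JQ1 with LPS lowered 8 of 11 tested activators and regulators and raised 1 (all genes 32.9% lower and 24.4% higher).

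Of 16 matrix substrates, 14 were tested with LPS, and 8 rose and 0 fell at an adjusted p under 0.05 (median 0.86, all genes 31.6% higher and 32.9% lower). Vcan encodes versican, a substrate of Adamts4. It rose from 22.6 ± 3.46 to 3631 ± 644 normalised counts (7.34, SE 0.24, adjusted p = 3.61e-202) and fell with JQ1 to 531 ± 91.0 (-2.77, SE 0.18, adjusted p = 8.34e-55), the opposite of Adamts4. Fn1, fibronectin, was lower after JQ1 both in unstimulated cells (-1.997, SE 0.17, adjusted p = 1.18e-30) and after LPS (-3.09, SE 0.17, adjusted p = 1.46e-71), and rose with IL-10 alone from 1995 ± 469 to 4262 ± 633 (1.09, SE 0.17, adjusted p = 1.49e-08). JQ1 with LPS lowered 7 of 14 tested substrates and raised 1 (all genes 32.9% lower and 24.4% higher).

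The genes whose pattern was most like that of each abundant member, by Pearson correlation of log2(normalised count + 1) over the 18 libraries among 8378 genes, are given as a description. All points share libraries and scaling, and differences between the groups set much of the value. For Mmp12 these were mainly differences with JQ1 (falls of 7.31-fold without and 7.45-fold with LPS), beside a log2 fold change of 0.58 with LPS. They were Parp9 (r = 0.998) and Ccnd2 (0.998) for Mmp13, Kpnb1 (0.990) for Mmp14, Cav2 (0.978) and Kcnn4 (0.969) for Mmp12, and Stx2 (0.981) and Mfsd7a (0.979) for Mmp9. For Adamts4 they were Stat5a (0.995) and G3bp1 (0.995), for Mmp19 Sh3pxd2b (0.980) and Acot11 (0.976), and for Timp2 Tmem94 (0.993) and Zmynd8 (0.989).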

How the data were processed

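Stranded, ribosomal RNA-depleted libraries of BMDMs were sequenced by the authors as paired ends, aligned to mm9 with STAR and quantified per gene with RSEM 1.2.31 at default settings. In the deposited expected counts, RSEM divides reads that match several genes between them; 5.40% to 6.63% of values per library were not whole, and all were rounded. The deposited TPM values are the authors' abundances per transcript length, and the deposited FPKM values were not used. Groups and replicate numbers came from the titles. The floor of 3 counts was 0.106 to 0.442 CPM per library and covers counting error only. Replicates differed beyond sampling noise (chi-square per degree of freedom 3.97 to 28.3).

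The DESeq2 1.42.0 Wald test (R 4.3.3) was fitted to all 18 libraries and genes with group as the only term, after the methods of the study, with Benjamini-Hochberg adjustment over all genes tested. edgeR 4.0.16 and limma 3.58.1 (log2 of TPM plus 1 or 0.1, genes with TPM of at least 1 in at least 3 libraries) were alternatives, beside total-count scaling, a filter of 10 counts in 3 libraries, both groups alone, a lane term, a replicate block and leaving out each library. DESeq2 and edgeR alone were run on simulated counts, for LPS against unstimulated, with 200 genes changed in equal numbers up and down. Those counts cannot show how scaling acts when most genes change, and the other alternatives and the interactions were not simulated. The design text speaks of matched samples and the labels of 3 mice, so replicate numbers were taken to name mice. No label ties a number to a mouse, and the correlation of same-numbered deviations ran only from -0.124 to 0.469. All replicate 1 libraries were on lane 7 and all replicate 3 libraries on lane 8, so lane and mouse cannot be told apart except through replicate 2. Replicate 2 was on lane 7 in every group without LPS and on lane 8 in every group with LPS. Within that replicate, lane and LPS cannot be told apart.

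The genes and lists were chosen with earlier results of these data known. Beside the 10 genes, Il10, the listed cell type markers and the most similar genes, the text names per comparison up to 4 genes of the wider lists by size of change (adjusted p under 0.05, mean of at least 100, same direction in all 3 pairs). Some genes that this rule or the likeness to a member picks are not reported here. Adamts5, Mmp3, Mmp7, Mmp10 and Mmp20 fall outside that rule, and the neighbours overlapping in sequence are named for position. Positions are from GENCODE vM1 on mm9 and promoters from RefSeq.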

Additional observations from a re-analysis of the deposited data

Results flagged for a closer look

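In 5 of the 10 genes the effect of JQ1 differed between cells with and without LPS by the interaction term of DESeq2. The interaction was -1.39 for Mmp9, -1.75 for Mmp13, -1.89 for Timp1 and -1.997 for Timp3 on the log2 scale, so JQ1 lowered these genes more, or raised them less, with LPS. It was 4.52 for Adamts4, which had 1 read in the 3 JQ1 libraries and 9 in the unstimulated ones, so that the size of this value is poorly fixed. All 5 calls stood under every alternative run, each left-out library included. In the same test 41.5% of all genes were called.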

How the results depend on the processing

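Over all alternatives run, 872 of the results past the threshold kept direction and call, 48 kept direction and lost the call and 6 reversed; of those not past it, 519 were unchanged, 37 passed and 33 reversed. The 6 reversals of a call were the rise of Mmp12 with LPS, which was -0.35 with total-count scaling and -0.21 with limma on log2(TPM + 1) and on log2(TPM + 0.1), and its rise with LPS after IL-10, which was -0.19, -0.11 and -0.11. Timp1 with LPS after JQ1 became -0.045 with total-count scaling. The interaction of JQ1 with LPS changed sign for Mmp12 with edgeR (0.080), total-count scaling (0.52), limma on log2(TPM + 1) (0.50) and on log2(TPM + 0.1) (0.51), and for Mmp8 with limma on log2(TPM + 1) (0.25). The interaction of IL-10 with LPS of Adamts4 became -0.87 and -0.53 with limma at the pseudocounts of 1 and 0.1. For other genes that interaction lay near 0 and turned to -0.015 for Timp3 with the replicate block and, with total-count scaling, to 0.00016 for Mmp8, 0.015 for Mmp13 and 0.0020 for Timp2. The cause was not tested. Leaving out 1 library at a time, Mmp12 in the JQ1 interaction ran from -0.16 to 0.20, Timp3 with IL-10 alone from -0.20 to 0.22, and Timp3 with LPS + IL-10 against LPS from -0.066 to 0.25. In the IL-10 interaction Mmp8 ran from -0.23 to 0.015, Mmp12 from -0.13 to 0.28, Mmp13 from -0.35 to 0.14 and Timp3 from -0.12 to 0.31.

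With the replicate as a block, which pairs libraries by the number taken to name a mouse, IL-10 alone called 2 of the 10 genes in place of 0, and the groups fitted alone also called 2. The block changed the calls of Adamts4 with JQ1 alone, Mmp13 with LPS + IL-10 and Mmp14 in the JQ1 interaction, as given above, and no other. The IL-10 interaction called 1 gene with total-count scaling and 1 with limma on log2(TPM + 1). Leaving out libraries, the number of the 10 genes called was 0 to 3 for IL-10 alone, 0 to 2 for the IL-10 interaction, 7 to 10 for JQ1 alone and 6 to 8 for LPS after JQ1. Over all genes IL-10 alone called 358, against 231 with edgeR, 171 and 117 with limma, and 230 without unstimulated replicate 3 or 168 without IL-10 replicate 1. LPS + IL-10 against LPS called 1968, against 1089 with both groups alone, and the IL-10 interaction 804, against 529 with limma on log2(TPM + 0.1).

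Without Mmp13, the MMP of highest mean TPM, the MMP to TIMP ratio was 12.6 after LPS alone, 2.79 after JQ1 and LPS, and 10.8 after IL-10 and LPS. Depth limits Adamts4 without LPS and Mmp8 with JQ1, where a few reads set the values. It also limits the Adamts4 to Timp3 ratios, as Timp3 had 10 to 95 reads per library.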
